A study of Mus musculus with 3 samples.

Results

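The interferon regulatory factor genes are described here in effector memory CD4+ alpha-beta T cells, the antigen-experienced helper cells that patrol tissues. The genes were chosen by symbol in the GENCODE M21 annotation, with no measured value used, and are Irf1, Irf2, Irf3, Irf4, Irf5, Irf7, Irf8 and Irf9, which makes 8 of the 55536 annotated genes. All RNA came from 1 male C57BL/6J mouse of 7 months, unmodified as far as the labels say, and was sequenced as polyadenylated RNA in 3 technical replicate libraries that form 1 group. No second condition was measured, so the comparisons are between genes, between transcripts and between libraries, and every SD and p-value below covers technical spread within 1 mouse. The sort, the library kit, the aligner and the quantifier were not given in the sources used here.

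These factors share a DNA-binding domain that recognises interferon-stimulated response elements. Some of them wait in the cytoplasm until nucleic acid sensors activate them and then switch on type I interferon, some relay the interferon signal to its target genes, and some set lymphoid and myeloid cell fates. In T cells, Irf1 and Irf2 act on type 1 helper and class I presentation genes, and Irf4 couples T cell receptor strength to effector differentiation.

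Levels are given in TPM, a share of all transcripts that corrects for gene length, as mean ± SD over n = 3 libraries. Gene counts summed to between 14152590 and 16251564 per library. The genes that define the labelled cell type were high: all 8 T cell core genes exceeded 100 TPM, with a median of 640 TPM, as did all 6 genes listed for effector memory cells. Of the CD8 T cell genes, Cd8a stood at 0.0433 ± 0.0153 TPM and Cd8b1 at 4.16 ± 0.887 TPM, and the regulatory T cell gene Foxp3 stood at 0.0767 ± 0.133 TPM. Because this is bulk RNA, a gene's level does not tell few cells with much transcript from many cells with little.

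All 8 genes were detected in every library. Irf7, the highest by mean, exceeded Irf8, the lowest by mean, by 43.1-fold ± 6.03 within libraries. Irf7 and Irf1 were far above the others and together made 70.3% ± 0.436 of the summed TPM of the 8 genes, which was 979 ± 68.5. Irf3 and Irf2 came next at about 100 TPM, followed by Irf9, Irf5, Irf4 and Irf8. Among 22028 protein-coding genes, whose median was 0.7 TPM, 1.80% were higher than Irf7 and 1.83% higher than Irf1, against 34.2% higher than Irf4 and 35.8% higher than Irf8. In the order of levels, the ranges over libraries overlapped for Irf7 and Irf1, for Irf3 and Irf2, and for Irf4 and Irf8, so the order within each of these pairs was not resolved beyond their spread. The other steps, in TPM, were larger than the spread in all 3 libraries: Irf1 was 3.09-fold ± 0.311 above Irf3, Irf2 2.34-fold ± 0.365 above Irf9, Irf9 1.61-fold ± 0.312 above Irf5, and Irf5 2.62-fold ± 0.70 above Irf4. The step from Irf9 to Irf5 turned in the second deposited gene table, where, with no length term, Irf5 took 6.98% and Irf9 6.58% of the summed CPM (counts scaled to library size) of the 8 genes. Irf1 took 23.75% and Irf7 35.59% there, whereas in CPM of the first deposited gene table Irf1 took 38.6% and Irf7 31.88%. How far this pair stood apart, and which led, thus depended on the table and the length term.

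**Figure D1:**
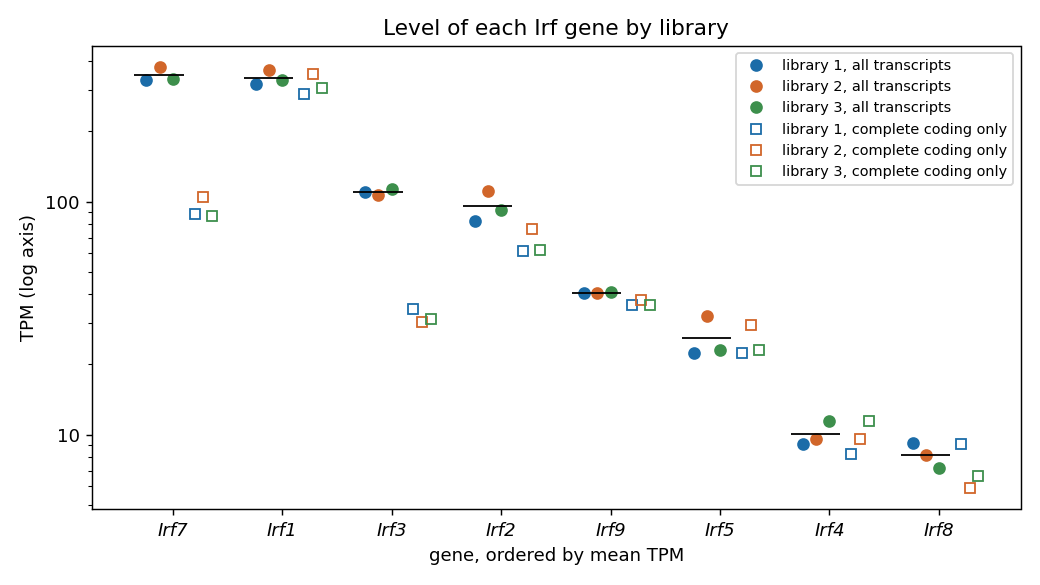
TPM on a log axis for each Irf gene, ordered by mean; filled circles are the gene total in libraries 1, 2 and 3, black bars are their means, and open squares are the TPM of transcripts with a complete coding sequence. Irf7 and Irf1 sit together at the top by gene total, but the squares of Irf7 fall to between 86.6 and 104 TPM while those of Irf1 stay between 289 and 352.

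Irf1 is an activator that interferon gamma induces. The gene (ENSMUSG00000018899.16, chr11:53770014-53778374 on the plus strand of GRCm38/mm10) measured 318.5 TPM in library 1, 369 in library 2 and 332 in library 3, or 340 ± 26.0 TPM. Library 2 was the highest, by 1.16-fold over library 1. Most of its level lay in coding transcripts, with 93.0% ± 2.44 in those whose annotated coding sequence is complete.

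The Irf1 transcripts start at alternative first exons. Those from the distal exon, chr11:53770014-53770278, took 71.3%, 69.9% and 64.8% of the gene's TPM in libraries 1, 2 and 3, or 68.6% ± 3.42, led by Irf1-202 at 67.2% ± 2.81. Irf1-201, from the exon at chr11:53770495-53770691, took 20.9%, 26.9% and 28.4%, or 25.4% ± 3.98. The distal exon therefore led in all 3 libraries, and both of these transcripts carry an open reading frame of 987 bases. Their split is uncertain within a library, since the deposited posterior SD of read assignment was 194 to 248 counts for each, against 1337 to 4648 counts assigned.

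Irf2 binds the same elements as Irf1 and is known mainly as its antagonist. The gene (ENSMUSG00000031627.9, chr8:46739732-46847458, plus strand) measured 82.6 TPM in library 1, 111 in library 2 and 91.9 in library 3, or 95.3 ± 14.7 TPM. Library 2 was again the highest, and Irf1 exceeded Irf2 in each library, by 3.59-fold ± 0.274. The spread was narrower without the length term: the highest library was 1.35 times the lowest in TPM but 1.14 times in CPM, as the effective length given to Irf2 fell from 1987 bases in library 1 to 1724 in library 2. Irf2-201, the full-length form, took 74.6%, 60.4% and 67.6% of the gene's TPM, and the next, the incomplete model Irf2-204, took 8.59% ± 3.02. Other short models varied between libraries: Irf2-203 took 3.49%, 12.1% and 2.06%, and Irf2-205 took 0%, 1.01% and 15.1%.

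The promoters of both genes hold letter matches to motifs known from interferon responses, and they are shown for that reason. RefSeq promoters on GRCm38.p6 were matched for all 8 genes, with 11 start sites, and the 250 bases upstream of each were searched on both strands. The motifs were the gamma-activated sequence, TTCNNNGAA, and an interferon-stimulated response element, taken as GAAA, any 2 bases and GAAA again. These matches do not overlap where both were found. Capitals mark the matches in Irf1 (chr11:53769899-53769957) and Irf2 (chr8:46739495-46739554), printed 5′ to 3′ on the gene's strand.
Irf1 promoter: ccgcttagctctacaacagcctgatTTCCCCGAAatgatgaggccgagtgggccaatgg
Irf2 promoter: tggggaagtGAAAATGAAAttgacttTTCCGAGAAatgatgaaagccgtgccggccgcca
The Irf1 match ended 82 bases upstream of the distal start, the start whose first exon took most of the Irf1 signal, and the window of the proximal RefSeq start held neither motif. The Irf2 window held the response element 232 bases and the gamma-activated sequence 216 bases upstream. The gamma-activated sequence was present in 3 of 11 member windows (Irf1, Irf2 and 1 start of Irf8) and in 7.02% of 32851 promoter windows in the table, and the response element in 1 of 11 and in 2.98%. A match of letters does not show a bound site, and binding was not measured.

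Irf7 is known as the interferon-inducible amplifier of type I interferon production. The gene (ENSMUSG00000025498.15, chr7:141262706-141266481, minus strand) measured 332 TPM in library 1, 378 in library 2 and 336 in library 3, or 349 ± 25.5 TPM. It exceeded Irf1 in all 3 libraries, but by only 1.03-fold ± 0.0152, and it exceeded Irf3 by 3.17-fold ± 0.316. Unlike Irf1, most of this level was assigned to transcripts annotated with a retained intron, which took 59.5%, 57.0% and 60.1% in the 3 libraries, or 58.9% ± 1.61. A transcript annotated for nonsense-mediated decay, Irf7-212, took a further 11.6% ± 0.684.

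Complete coding transcripts therefore made up a minority of Irf7. They amounted to 88.6, 104 and 86.6 TPM, or 26.7% ± 0.911 of the gene, compared with 289, 352 and 308 TPM for Irf1. On this measure Irf1 exceeded Irf7 in every library, by 3.40-fold ± 0.150, with a range of 3.26 to 3.56. The pair that was level in total TPM was thus well separated in coding transcripts, and the ratio was 3.32 with posterior mean TPM and 3.91 with expected counts.

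The intron kept most was the fifth of 9 in the reference form Irf7-201, a 69-base intron at chr7:141264656-141264724, and transcripts that keep it held 39.2% ± 5.11 of the gene. It is shown because the leading transcript of the gene, Irf7-210, keeps it. Capitals mark the intron, with 20 bases of the exons on each side, on the gene's strand.
Irf7 intron 5: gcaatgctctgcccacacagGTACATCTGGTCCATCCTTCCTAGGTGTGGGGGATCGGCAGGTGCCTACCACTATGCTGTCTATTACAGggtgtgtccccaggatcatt
Transcripts that keep this intron took 43.8%, 38.9% and 47.6% of the TPM of all transcripts spanning it, or 43.4% ± 4.34. The other 8 introns of Irf7 were kept in 2.58% to 13.1%, below the fifth in each library. Apart from introns 3 and 7, these are kept only by the unspliced model Irf7-213, so their values depend on which models are annotated. Splicing of this intron to its near acceptor took 29.4% ± 1.73, splicing to a farther acceptor 10.8% ± 1.69, and transcripts that skip the preceding exon 16.4% ± 1.24. The intron is the shortest of the gene, whose introns run from 69 to 345 bases with a median of 85, and its GC content was 53.6%. Its length is a multiple of 3, but reading through it from the annotated start meets an in-frame stop that begins at base 22 of the intron, after 453 coding bases.

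**Figure D2:**
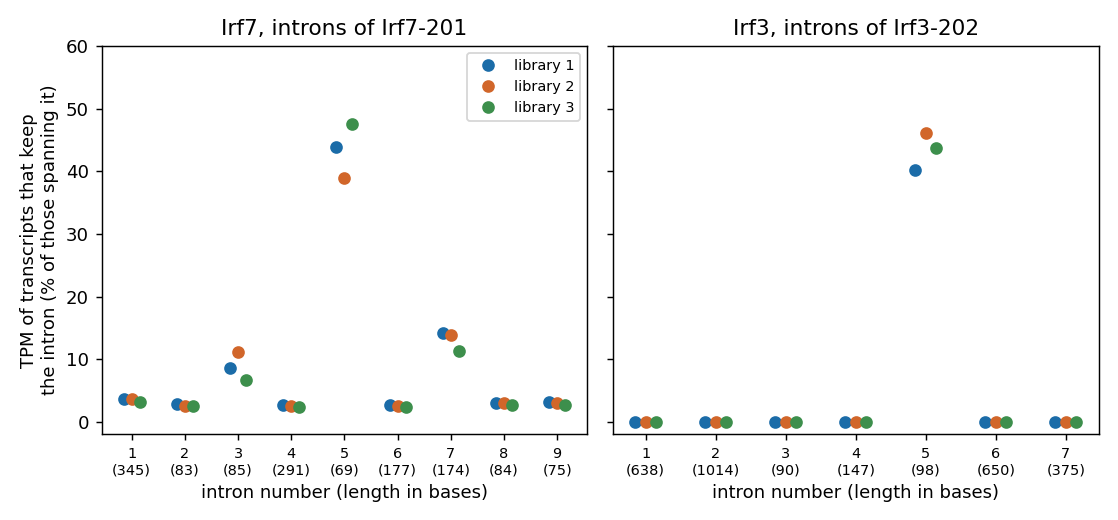
Share of TPM in transcripts that keep the whole of each intron, as percent of all transcripts spanning it, for the introns of Irf7-201 and Irf3-202 in libraries 1, 2 and 3; intron lengths in bases are in brackets. Intron 5 is the highest in both genes, at 38.9 to 47.6% in Irf7 and 40.2 to 46.0% in Irf3, and the next of Irf7 averages 13.1%. No annotated model keeps any other Irf3 intron whole, so those were set to 0 and not measured.

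The leading forms of Irf7, coding and retained, varied more between libraries than the sums of their classes. The SD of the share was 5.47 for Irf7-201, 4.99 for Irf7-202 and 5.09 for Irf7-210. It was 0.911 for the sum of complete coding transcripts and 1.61 for that of the retained class. Irf7-201 took 9.69%, 19.9% and 11.4% of the gene and Irf7-202 took 16.7%, 7.15% and 14.4%. The larger share switched from Irf7-202 in libraries 1 and 3 to Irf7-201 in library 2. These forms differ by inclusion of a 93-base exon at chr7:141264223-141264315, and the posterior SD of their assignment ran from 119 to 215 counts against 410 to 1244 counts assigned. Irf7-210 itself took 37.9%, 31.3% and 41.4%, lowest in library 2.

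Irf3 is the constitutive partner of Irf7, phosphorylated by TBK1 when cytosolic nucleic acid is sensed. The gene (ENSMUSG00000003184.15, chr7:44997648-45002848, plus strand) measured 110 TPM in library 1, 107 in library 2 and 113 in library 3, a narrow range with a mean of 110 ± 3.20 TPM. Models annotated with a retained intron took a large share here too, at 57.5%, 57.1% and 57.9%, or 57.5% ± 0.394. The coding form Irf3-202 took 27.4% ± 2.55 and the retained-intron form Irf3-207 27.4% ± 1.75, so neither led. Complete coding transcripts amounted to 32.1 ± 2.10 TPM, which placed Irf3 below Irf9 on that measure although it was above Irf9 by gene total.

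In Irf3 the only intron of Irf3-202 that annotated models keep whole was also short, number 5, of 98 bases at chr7:45000547-45000644. It is shown for comparison with that of Irf7 in the same layout. Transcripts that keep it held 28.6% ± 1.19 of the gene, so they made only part of the retained-intron class.
Irf3 intron 5: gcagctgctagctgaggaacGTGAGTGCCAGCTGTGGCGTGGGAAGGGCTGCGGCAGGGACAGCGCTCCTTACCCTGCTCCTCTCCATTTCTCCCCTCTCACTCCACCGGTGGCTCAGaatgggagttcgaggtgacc
It was kept in 40.2%, 46.0% and 43.7% of the TPM spanning it, or 43.3% ± 2.93. No annotated model keeps the whole of any of the other 6 introns of Irf3-202, so their retention could not be measured here. Some of the class covers introns in part. Irf3-210, at 7.56% ± 1.15 of the gene, begins inside intron 6, and Irf3-208 took 5.70% ± 1.85. This intron has a GC content of 65.3%, holds no in-frame stop when read through from the annotated start, and shifts the frame because its length is not a multiple of 3. A further 15.7% ± 1.46 of Irf3 was given to Irf3-212, an unspliced model that runs into intron 1 and lies inside the 1065 bases where Irf3 overlaps Bcl2l12 on the opposite strand, which measured 12.6 ± 1.95 TPM. Strand was not stated for these counts, so reads there cannot be told apart, and without Irf3-212 the retained-intron share was 49.6% ± 1.21.

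Across 5050 protein-coding genes with a mean TPM of at least 10 and an annotated retained-intron model, the median share of that class was 13.0%, with quartiles of 4.91% and 27.6%. Irf7 lay at a level that 5.19% of these genes reached and Irf3 at one that 5.62% reached. Irf9 (10.5%), Irf2 (8.14%) and Irf1 (0.639%) lay below the median. Irf4 and Irf5 have no annotated model of this class. Irf8, below the limit of 10 TPM, was at 11.0% ± 12.7, with most of it in library 2. Retained-intron models held the larger share in Irf7, and in Irf3 with Irf3-212 counted. Without Irf3-212 their share of Irf3 was 49.6% ± 1.21, so whether it was the larger was not resolved. In each other gene with such models, retained-intron models held the smaller share.

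**Figure D3:**
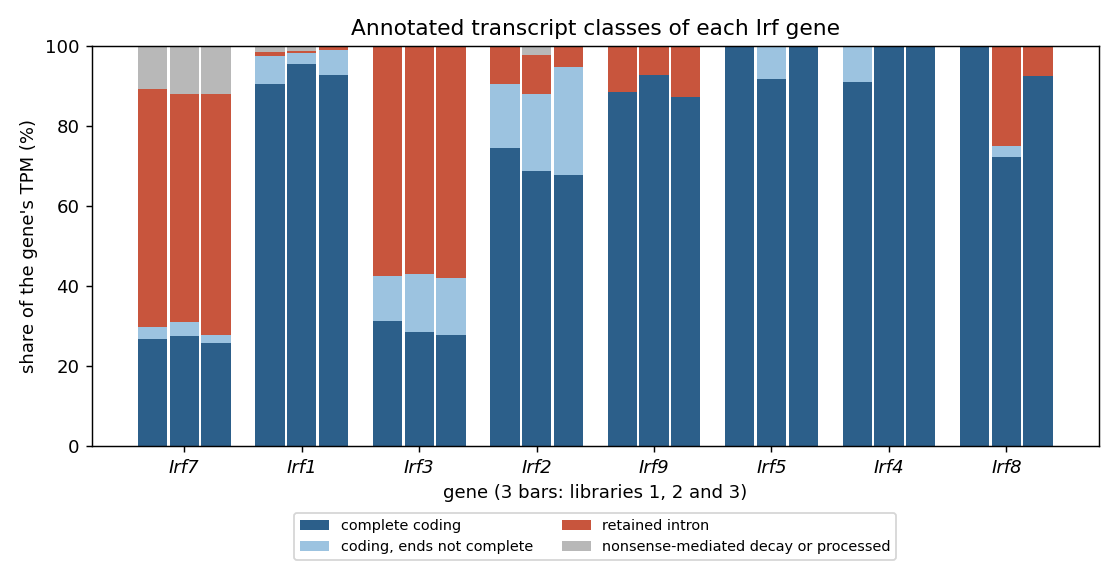
Share of each gene's TPM in percent by annotated transcript class, with 3 bars per gene for libraries 1, 2 and 3. Retained-intron models (red) hold 57.0 to 60.1% of Irf7 and 57.1 to 57.9% of Irf3, and complete coding transcripts (dark blue) hold most of every other gene in all 3 libraries.

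Irf5 acts downstream of MyD88 and is best known from myeloid and B cells. The gene (ENSMUSG00000029771.12, chr6:29526625-29541871, plus strand) measured 22.4 TPM in library 1, 32.4 in library 2 and 23.1 in library 3, or 25.9 ± 5.57 TPM. Library 2 alone was high, and the other libraries lay close together. Irf5-201 took 94.5% ± 4.72 of the gene, and the next, Irf5-204, was listed at 8.34% in library 2 and at 0 in the others. The last 1045 bases of the locus overlap Tnpo3 on the opposite strand, which measured 73.9 ± 7.78 TPM, but the Irf5 models that reach this stretch had 0 counts, and Irf5-201 ends before it, at base 29537319.

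Among the 18 sensors, adaptors and kinases that feed Irf3, Irf5 and Irf7, 15 reached 1 TPM, 12 of them 10 TPM and 2 of them 100 TPM. The median of the list was 31.6 ± 1.92 TPM. The kinase genes Ikbkb (274 ± 11.7 TPM) and Irak1 (124 ± 8.39 TPM) were the highest. Tlr9, which senses DNA in endosomes, was the lowest at 0.01 ± 0.0173 TPM. Of the 10 genes listed for interferons themselves, Ifng alone reached 1 TPM, at 612 ± 31.4 TPM, and Ifnb1, a classical target of Irf3 and Irf7, stood at 0.567 ± 0.405 TPM. In 5 of the 10, no read was counted, which allows up to 3 counts, or 0.185 to 0.212 CPM, in a library.

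Irf9 is the DNA-binding subunit of ISGF3, the complex that type I interferon activates. The gene (ENSMUSG00000002325.15, chr14:55603571-55610030, plus strand) had the narrowest TPM range of the family, at 40.5 TPM in library 1, 40.6 in library 2 and 41.0 in library 3, or 40.7 ± 0.293 TPM. The 3 values were almost the same, whereas in the second deposited gene table the highest library was 1.12 times the lowest for Irf9 after scaling, against 1.04 times for Irf3. Irf9-205, which starts at base 55604579, took 75.6%, 89.1% and 83.7% of the gene, or 82.8% ± 6.79. The upstream first exon, used by Irf9-203 from base 55603571 and Irf9-202 from base 55603985, took 6.76% ± 5.34. Irf9-202 held 7.43% in library 1 and 0 in the others. From base 55603571, 123 bases overlap Rnf31 on the same strand, which measured 36.6 ± 6.55 TPM. Among single transcripts the retained-intron model Irf9-206 was second at 5.02% ± 0.552.

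The interferon receptor chains, JAK kinases and STATs were well expressed, with 10 of 11 at 1 TPM, 9 at 10 TPM, 6 at 100 TPM and a median of 149 ± 4.60 TPM. The interferon gamma receptor gene Ifngr1 (2003 ± 178 TPM) and the kinase gene Jak1 (538 ± 13.8 TPM) led, and the interferon lambda receptor gene Ifnlr1 was lowest at 0.07 ± 0.0693 TPM. Of the 17 listed targets of ISGF3, 15 reached 1 TPM and 10 reached 10 TPM, but none reached 100 TPM, and their median was 12.9 ± 2.27 TPM. Isg15, a ubiquitin-like modifier, was highest at 95.6 ± 1.15 TPM, followed by the virus-tethering gene Bst2 at 80.2 ± 7.21 TPM, and Oas2 was lowest at 0.303 ± 0.199 TPM. The 9 class I presentation genes, known targets of Irf1 and Irf2, all reached 10 TPM, 8 of them reached 100 TPM, and the median was 215 ± 19.1 TPM. B2m (6843 ± 287 TPM) and the immunoproteasome gene Psmb8 (621 ± 36.0 TPM) were highest and the peptide trimmer gene Erap1 was lowest at 92.4 ± 10.2 TPM. For comparison, 7.82% of all protein-coding genes reached 100 TPM.

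The 3 listed corepressors that bind Irf2 were all above 10 TPM. Irf2bp2 measured 216, 105 and 197 TPM, or 173 ± 59.5 TPM, and was low in library 2, where Irf2 itself was high. Irf2bpl stood at 82.8 ± 3.98 TPM and Irf2bp1 at 25.7 ± 1.72 TPM.

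Irf4 rises with T cell receptor signal strength and pairs with BATF and JUN proteins on composite elements. The gene (ENSMUSG00000021356.10, chr13:30749226-30766976, plus strand) measured 9.08 TPM in library 1, 9.54 in library 2 and 11.4 in library 3, or 10.02 ± 1.25 TPM. Library 3 was the highest, and Irf1 exceeded Irf4 by 34.2-fold ± 4.87. The gene had 390, 398 and 474 counts.

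The full-length Irf4 transcripts differ by a single codon at an exon junction, chr13:30753445-30753447, shown because the deposited shares turn on it. Capitals mark the 3 bases present in Irf4-201 and absent from Irf4-202, with 20 bases on each side.
Irf4-201: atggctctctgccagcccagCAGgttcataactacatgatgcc
Irf4-202: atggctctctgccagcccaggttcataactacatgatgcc
Irf4-201 was given 91.0%, 100% and 45.9% of the gene and Irf4-202 0%, 0% and 54.1%. Library 3 thus appears to differ from the others, but the posterior SD of either assignment was 67.0 to 99.4 counts out of at most 474. With the posterior mean TPM the ranges were 41.5 to 69.7% for Irf4-201 and 16.2 to 49.9% for Irf4-202. A posterior mean is above 0 even for a model with no assigned count, so it does not show that both forms were present. Reads that distinguish these forms must cross this junction, so their split was not resolved.

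Of the 8 genes listed for the Irf4 axis in T cells, 7 had a higher mean TPM than Irf4. All 8 reached 1 TPM and 3 reached 100 TPM, and their median was 73.6 ± 5.45 TPM. Nfatc1, which encodes a calcium-activated transcription factor, was among the highest at 254 ± 14.9 TPM, and the cytokine gene Il21 was lowest at 5.42 ± 0.295 TPM. The DNA-binding partners fell into distinct sets. Batf (672 ± 34.5 TPM), Jun (271 ± 48.0 TPM), Junb (4782 ± 691 TPM) and Jund (1622 ± 160 TPM), which pair with Irf4 in T cells, were high. Spi1 (0.593 ± 0.518 TPM) and Spib (0.34 ± 0.0954 TPM), the ETS partners used in myeloid and B cells, were below 1 TPM, as was Batf3 at 0.0967 ± 0.167 TPM. Batf2 had no read in any library.

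Irf8 is known above all as a fate factor of dendritic cells, monocytes and B cells. The gene (ENSMUSG00000041515.10, chr8:120736358-120756694, plus strand) was the lowest of the family by mean, at 9.18 TPM in library 1, 8.14 in library 2 and 7.18 in library 3, or 8.17 ± 1.00 TPM. Library 1 was the highest, with 225 counts against 139 and 149. Irf4 exceeded Irf8 in 2 of 3 libraries, by 1.25-fold ± 0.310 on average. Irf8-201 took 76.0%, 45.0% and 61.6% of the gene and the shorter coding form Irf8-204 20.5%, 17.3% and 30.9%. In library 2 a retained-intron model, Irf8-202, took 23.5%, but this rested on 12.1 expected counts and was 0 in the others. The readthrough gene Gm20388 covers the whole locus on the same strand and was given 5.94 ± 8.74 TPM, so the division of reads between it and Irf8 is uncertain. Gm20388, Bcl2l12, Tnpo3, Rnf31, Irf2-203, Irf2-205, Irf3-208, Irf3-210, Irf8-202 and Irf9-202 were singled out after their values were seen.

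Because Irf4, Irf5 and Irf8 are also expressed by B and myeloid cells, markers of those cells were read beside them. All 8 B cell markers were below 1 TPM and their sum ranged from 1.09 to 2.42 TPM over libraries. The 3 plasma cell markers summed to between 1.02 and 2.43 TPM. Of 7 monocyte and macrophage markers, Cd68 alone exceeded 1 TPM (3.26 ± 1.17 TPM), the sum was 3.05 to 6.21 TPM, and Fcgr1 had no read.
The 7 markers of conventional dendritic cells summed to between 26.0 and 30.1 TPM, almost all of it from Zbtb46 at 26.0 ± 2.15 TPM. Xcr1 measured 1.77 ± 0.450 TPM, Flt3 0.187 ± 0.0981 TPM, and Clec9a and Clec10a had no read. Of 6 plasmacytoid dendritic cell markers, Pacsin1 (9.24 ± 2.50 TPM) and Tcf4 (6.93 ± 0.315 TPM) made most of a sum of 14.1 to 19.8 TPM, and Siglech stood at 0.303 ± 0.0551 TPM. The 5 granulocyte markers summed to between 0.17 and 2.17 TPM. Most of these markers were thus far below Irf5 (25.9 TPM), Irf4 (10.02 TPM) and Irf8 (8.17 TPM), with Zbtb46, Pacsin1, Tcf4 and Cd68 as exceptions. The part of rare other cells in the Irf levels was not tested.

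**Figure D4:**
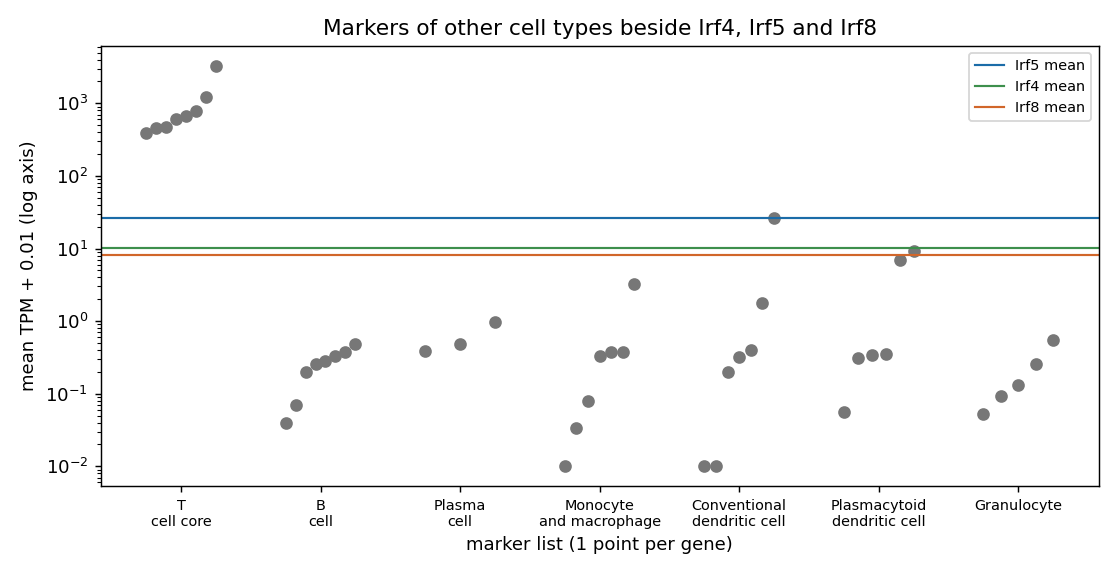
Mean TPM plus 0.01 on a log axis of each gene in the T cell core list and in 6 marker lists of other cells, 1 point per gene, with lines at the means of Irf5, Irf4 and Irf8. All 8 T cell genes lie above 100 TPM, all B cell, plasma cell and granulocyte markers lie below 1 TPM, and Zbtb46 (26.0 TPM) and Pacsin1 (9.24 TPM) are the markers that reach the lines.

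The closest match in level among 84 listed pathway genes was also sought for each member, by the mean absolute difference of log2(TPM + 0.1) over 3 libraries. Tapbp, at 317 ± 32.7 TPM, was nearest to both Irf1 (0.10) and Irf7 (0.14). Ikbke was nearest to Irf2 (0.15), Rel to Irf3 (0.14), Traf3 to Irf9 (0.11), Traf6 to Irf5 (0.18), Mavs to Irf4 (0.23) and Ifngr2 to Irf8 (0.12). These are matches of level within 1 cell population.

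Whether the libraries differed beyond counting noise was asked by a chi-square test of homogeneity per gene, on rounded expected counts with Benjamini-Hochberg adjustment over all genes tested. It called 54.7% of 13949 genes at 0.05, and 6 of the 8 Irf genes, a share near this background. Irf1 gave the smallest adjusted p of the family (1.03e-15, chi-square test with Benjamini-Hochberg adjustment), with 377 CPM in library 1 against 439 in library 2. Irf3 (0.397) and Irf9 (0.937) did not pass this chi-square test after Benjamini-Hochberg adjustment. The median chi-square was 6.04 times that of pure counting noise, and after division by this factor 3.84% of genes and 0 of the 8 were called. The nearest of them was Irf1, at an adjusted p of 0.0502 in that divided chi-square test with Benjamini-Hochberg adjustment. The second deposited gene table, counted from a separate alignment, also gave 0 of 8 by the chi-square test, beside 26.2% of 10267 genes. It holds fewer counts, 4579836 to 5110680 per library, which lowers what the test can call. In the divided test and in the second table alike, 1 Irf gene had an unadjusted chi-square p under 0.05. Among the pathway genes tested on the expected counts, the undivided test called 9 of 17 sensors, adaptors and kinases, 7 of 10 receptors, JAKs and STATs, 10 of 16 ISGF3 targets, 8 of 9 class I genes, 5 of 8 genes of the Irf4 axis, 4 of 4 partners and 1 of 3 corepressors.

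Single libraries decided several of these calls, always by the same chi-square test with Benjamini-Hochberg adjustment. Without library 1, the adjusted p was 0.289 for Irf7 and 0.474 for Irf8. Without library 2 it was 0.44 for Irf2, 0.728 for Irf5 and 0.0991 for Irf7, and without library 3 it was 0.225 for Irf4. Irf1 passed whichever library was left out.

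The split of each gene over its transcripts was tested in the same way, and the chi-square test called 84.5% of 8096 genes and 7 of the 8 Irf genes. Irf8 was the exception, with an adjusted p of 0.157 by the chi-square test with Benjamini-Hochberg adjustment. After division by the median inflation of 10.9, 14.9% of genes were called and 2 of the 8, namely Irf4 and Irf7. These are the genes whose coding forms changed places between libraries, Irf4-201 with Irf4-202 and Irf7-201 with Irf7-202, and in both the posterior SD of assignment was large. The test takes the expected counts as exact and leaves that uncertainty out. The call for Irf9 was lost without library 1, at an adjusted p of 0.987 by the same chi-square test with Benjamini-Hochberg adjustment. With at least 100 counts per transcript the chi-square test called 5 of the 6 Irf genes it could take, beside 82.7% of 6152 genes. Irf2 was lost there, at an adjusted p of 0.0846 by that chi-square test with Benjamini-Hochberg adjustment. Irf4 without library 3 and Irf5 without library 1 had too few transcripts past the count limit to be tested.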

How the data were processed

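For every library the authors deposited tables of genes and of transcripts, made from transcriptome alignments to mm10 (GENCODE M21), per the listings with the samples. Per the file headers, the authors computed expected counts, which divide ambiguous reads among features, together with TPM, posterior mean TPM and the posterior SD of each count. A second deposited gene table holds whole-number counts on GENCODE M4 from a genome alignment. Tools and strand settings were not given in the sources used here. Fragments of 100 to 300 bases were made by acoustic shearing, per the labels.

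Members, gene lists and tests were chosen with earlier results of these data known. The rule named all 8 members, their leading 2 transcripts and any of 10% or more, the 2 highest and the lowest gene of each pathway list, every DNA-binding partner, and the nearest pathway gene to each member. Some genes that it covers are not reported here. Of 141 listed genes all matched, 1 of them by an older symbol. Rows naming no mouse gene, 0.188 to 0.579% of counts per library, were left out. Intervals from a count of 0 cover counting error only.

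A transcript's share is its TPM over that of its gene. Complete coding transcripts are those annotated as protein coding with both ends of the coding sequence found. An intron counted as kept where an exon of a transcript spans it, and an intron that no annotated model keeps was set to 0. After rounding to whole numbers, expected counts of each gene were compared over the 3 libraries by chi-square, against TMM effective library sizes from edgeR 4.0.16 in R 4.3.3, for genes with at least 30 counts. Transcript shares were tested likewise for genes with at least 2 transcripts of 30 counts. Both tests were tried on simulated counts with counting noise alone. These libraries showed more spread than that, so the simulation does not vouch for the calls. The gene test called 50% of 1.25-fold changes, 100% of 2-fold changes and 0.401% of unchanged genes. The transcript test called 68% of 2-fold changes and 0.141% of unchanged genes. Whether the libraries came from separate cultures is not stated beyond their being technical replicates. Sequences came from the GENCODE M21 transcripts and RefSeq promoters (GRCm38.p6); proteins were not used here. The rest was done in Python 3.11.15 (scipy 1.17.1, numpy 2.4.6, matplotlib 3.10.9, pandas 2.3.3). Alternatives included DESeq2 1.42.0 size factors, total counts, other count limits, the second table, other units and leaving out each library; complete coding and intron shares in other units, and Irf3 without Irf3-212, were added after seeing the data.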

Additional observations from a re-analysis of the deposited data

How the results depend on the processing

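The 8 Irf genes kept their order with posterior mean TPM and without each library. With CPM and no length term, 4 of 8 kept their place, since Irf1 then passed Irf7 and Irf2 passed Irf3, and 6 of 8 did with the second gene table, since Irf5 passed Irf9. Shares of the family's summed level in that table are set here against CPM of the first table, both with no length term. The share rose from 3.12 to 6.98% for Irf5, from 1.08 to 1.66% for Irf8 and from 5.48 to 6.58% for Irf9. It also rose from 7.01 to 12.6% for Irf3, from 10.2 to 10.8% for Irf2 and from 31.88 to 35.59% for Irf7. The share of Irf1 fell from 38.6 to 23.75%, and that of Irf4 from 2.67 to 2.05%. Genes called by the library test fell from 7629 (54.7% of 13949 tested) to 2691 (26.2% of 10267) in the second gene table. They fell to 535 (3.84% of 13949) after division by the median inflation. With a library left out they ranged from 3330 (25.8% of 12904) to 5131 (41.1% of 12471). The Irf genes called fell from 6 to 0 in the second table and after division. They fell to between 3 and 5 with a library left out. For transcript shares, division by the inflation left 1208 of 6844 genes (14.9% of 8096 tested) and 2 of 7 Irf genes. A limit of 100 counts per transcript left 5088 genes (82.7% of 6152) and 5 of 6 Irf genes tested. Leaving out a library gave 5105 (67.9% of 7522) to 5418 (72.1% of 7514) genes and 5 to 7 Irf genes. The lower counts without a library come with fewer samples, and the cause of the other shifts was not tested. DESeq2 size factors, total counts and limits of 1 or 300 counts each left 6 Irf genes called. Of all genes tested, these settings called 54.9%, 54.5%, 26.1% and 61.4%, in that order. With expected counts in place of TPM, intron 5 was kept in 50.5% for Irf7 and 49.2% for Irf3, and complete coding transcripts made 30.5% of Irf7, 37.7% of Irf3 and 89.9% of Irf2. No paired analysis was possible because there is only 1 group. Depth limits Irf8 most, where the gene has 139 to 225 counts per library.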

Other observations

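Bud13, a splicing factor known from mouse macrophages to act on an Irf7 intron, stood at 15.3 ± 0.383 TPM and was picked after the data were seen. Its part in the Irf7 values was not tested.

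The Irf8 promoter held 2 matches to the gamma-activated sequence in its window upstream of the start at base 120736358, at chr8:120736162-120736238, and is shown because no other member window held more than 1.
Irf8 promoter: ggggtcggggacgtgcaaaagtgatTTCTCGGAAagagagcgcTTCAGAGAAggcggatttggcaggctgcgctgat
Capitals mark the matches, printed 5′ to 3′ on the plus strand. Irf8 was the lowest member in TPM in libraries 2 and 3, and binding was not measured.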
